A study of Mus musculus with 18 samples.

Results

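The genes described here are 9 components of the type I interferon pathway: the receptor chains Ifnar1 and Ifnar2, the kinases Jak1 and Tyk2, the transcription factor subunits Stat2 and Irf9, the feedback inhibitors Socs1 and Usp18, and the ubiquitin-like modifier Isg15. They were selected by name from the 35275 genes of the deposited expression table, and all 9 passed the filter on low values (at least 0.5 FPM in at least 3 libraries), as did 13869 genes in all. FPM is the deposited unit, the reads of a gene scaled by a size factor of the library to a common depth, with no division by gene length. The list was chosen after earlier results of these data had shown large changes of interferon genes between control DM3 and control GM, and between MUNC genomic and control cells in DM3. Those comparisons, and the test of whether each MUNC line responded to differentiation unlike control, are therefore given as descriptions. Levels, changes and counts of genes called are printed without a p-value for any pathway gene, and nothing is read from those counts. The 8 other comparisons were tested, but they use the same libraries and add no independent support to the choice of genes.

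Type I interferons bind the receptor formed by Ifnar1 and Ifnar2, whose cytoplasmic tails carry Tyk2 and Jak1. The kinases phosphorylate Stat2, which joins Irf9 in the complex ISGF3, and this complex binds interferon-stimulated response elements. Among the genes so induced are Stat2 and Irf9 themselves, the kinase inhibitor Socs1, Usp18 and Isg15. Usp18 removes Isg15 from proteins and also blocks signalling at Ifnar2. Muscle cells carry the receptor and respond to interferon, and the response can interfere with myogenic differentiation.

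RNA-seq on polyadenylated RNA was performed in C2C12 cells, a mouse myoblast line that fuses into myotubes when serum is lowered. The stock was PAX7 negative per the labels, and this holds for all groups. Control cells were wild type, and the other lines overexpressed the spliced form (MUNC spliced) or the genomic form (MUNC genomic) of MUNC, a noncoding RNA made from DNA that precedes the Myod1 gene. Each line was sampled in growth medium with 20% foetal bovine serum (GM) and after 3 days in 2% horse serum (DM3), with 3 replicates in each of the 6 groups. The construct, and whether a line is 1 clone or a pool, are not given in the sources used here, so an effect of MUNC and any other difference between lines cannot be told apart. The level of MUNC itself was not analysed here, and the overexpression was not checked. The replicates are called biological in the labels without further detail, so p-values measure the spread between these samples.

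Recovered depth was 38416702 to 68788327 reads per library, and 3 reads, the upper limit that a count of 0 allows, corresponded to at most 0.0757 FPM. The muscle label was checked against markers: Myf5 was at 65.99 to 81.5 FPM in the control line in GM and at 95.04 to 109.9 FPM in DM3, whereas Myod1 reached at most 0.0854 FPM in GM and 0.221 FPM in DM3 there. Myog was at most 0.434 FPM in control DM3, against 40.95 to 225.9 FPM in MUNC spliced DM3 and 6.50 to 14.7 FPM in MUNC genomic DM3. From GM to DM3, Myog, Myh3 and Ckm, genes of muscle differentiation, rose in both MUNC lines (log2 change 1.60 to 3.95). In control cells limma called none of the 3: Myog 0.38 (adjusted p = 0.491), Myh3 0.14 (0.823) and Ckm 0.02 (0.957). Des rose by 1.68 there (adjusted p = 0.000527). For Myog and Myh3, every control DM3 library nonetheless lay above every control GM library. The added 1 FPM of the log2(FPM + 1) scale compresses changes at levels as low as that of Myog. In what follows, differentiation means the change of medium only. Among markers of cells that make or answer interferon, Siglech and Cd3e had no read in any library, and Adgre1 had 1 read in 1 library. The 7 macrophage or dendritic markers summed to 0.854 to 5.53 FPM per library, of which Cd68 made up most, and the 4 T, B or NK cell markers to at most 0.0429 FPM.

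Promoter sequence is shown for 4 members, Isg15, Stat2, Socs1 and Irf9, all named above as genes that ISGF3 induces. This choice does not follow the size of change, as Socs1 spanned only a 3.77-fold range over the libraries. RefSeq (build GRCm38.p6, equivalent to the mm10 build named in the submitters' processing notes) supplied the window from 250 bases before to 50 bases after the start for 8 of the 9 genes, and the Usp18 promoter was not analysed here. The windows were searched on both strands for the core of the interferon-stimulated response element, TTTC and TTTC with 2 bases of any kind between them, which reads GAAA and GAAA on the opposite strand. The bases before the start are printed 5′ to 3′ on the strand of the gene, with matches in capitals.
Isg15, chr4:156200819-156201068, minus strand: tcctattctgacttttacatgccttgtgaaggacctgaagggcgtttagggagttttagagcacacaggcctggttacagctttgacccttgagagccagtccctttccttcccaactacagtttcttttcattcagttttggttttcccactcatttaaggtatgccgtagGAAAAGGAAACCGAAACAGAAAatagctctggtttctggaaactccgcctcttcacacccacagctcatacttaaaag
Stat2, chr10:128270248-128270497, plus strand: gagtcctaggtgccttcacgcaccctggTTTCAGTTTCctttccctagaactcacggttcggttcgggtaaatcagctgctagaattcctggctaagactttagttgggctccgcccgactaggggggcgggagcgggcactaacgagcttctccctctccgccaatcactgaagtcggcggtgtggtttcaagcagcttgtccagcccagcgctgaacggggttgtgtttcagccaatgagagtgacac
Socs1, chr16:10785537-10785786, minus strand: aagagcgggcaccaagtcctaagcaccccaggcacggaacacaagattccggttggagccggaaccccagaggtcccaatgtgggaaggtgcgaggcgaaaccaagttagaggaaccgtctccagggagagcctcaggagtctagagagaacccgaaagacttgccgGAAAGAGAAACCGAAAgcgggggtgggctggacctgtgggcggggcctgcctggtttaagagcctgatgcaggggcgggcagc
Irf9, chr14:55603735-55603984, plus strand, first of 2 annotated starts: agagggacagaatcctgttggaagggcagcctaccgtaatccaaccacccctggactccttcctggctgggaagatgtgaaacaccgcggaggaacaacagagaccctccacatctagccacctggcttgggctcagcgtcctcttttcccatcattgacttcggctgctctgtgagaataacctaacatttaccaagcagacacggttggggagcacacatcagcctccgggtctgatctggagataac

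The Isg15 window held 3 overlapping matches, which began at positions -78, -72 and -66 from the start and form the run GAAAAGGAAACCGAAACAGAAA. Socs1 had 2 overlapping matches, at -83 and -77, and shares the element GAAACCGAAA with Isg15. Stat2 had 1 match, TTTCAGTTTC, at -222. The motif was not found in the windows of Ifnar1, Ifnar2, Jak1 and Tyk2 or in either window of Irf9. It occurs in 3.44% of the 32851 RefSeq promoter windows. A second motif, the GAS element (TTC and GAA with 3 bases between them, which reads the same on both strands), was present in the windows of Ifnar1 and Ifnar2 and in 8.30% of all windows. A match is a description of the sequence, and no binding was measured.

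The receptor chains were transcribed in all 18 libraries, over a 1.63-fold range for Ifnar1 and a 2.23-fold range for Ifnar2. Ifnar1 (ENSMUSG00000022967, chromosome 16, 91485032 to 91510523) spanned 62.7 to 102.2 FPM over all libraries. In control GM its level was 62.7, 69.2 and 63.7 FPM in replicates 1 to 3, in MUNC spliced GM 84.9, 97.5 and 79.9 FPM, and in MUNC genomic GM 73.7, 76.3 and 65.2 FPM. In DM3 the values were 78.4, 83.6 and 82.4 FPM in control, 86.5, 102.2 and 97.4 FPM in MUNC spliced and 88.4, 93.4 and 88.5 FPM in MUNC genomic cells. The 3 MUNC spliced GM libraries lay above all control GM libraries, while MUNC genomic GM overlapped with control GM.

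Ifnar2 (ENSMUSG00000022971, chromosome 16, 91372783 to 91405589), the chain that Usp18 docks on, was lower in GM than in DM3 in each line, with no overlap between the media. It was at 16.1, 19.0 and 16.7 FPM in control GM, 19.5, 22.1 and 20.0 FPM in MUNC spliced GM and 14.9, 18.4 and 15.3 FPM in MUNC genomic GM. After differentiation it was at 29.1, 29.9 and 31.7 FPM in control, 27.2, 32.1 and 33.2 FPM in MUNC spliced and 27.1, 28.6 and 26.5 FPM in MUNC genomic cells. On differentiation Ifnar2 rose by 0.56 on the log2(FPM + 1) scale in MUNC spliced cells (SE 0.11, adjusted p = 0.00113) and by 0.73 in MUNC genomic cells (SE 0.11, adjusted p = 5.49e-05), in limma adjusted by Benjamini-Hochberg over the 13869 genes. That test, scale and adjustment hold for every change and adjusted p that follows unless another is named. The change in control cells was 0.77 (SE 0.11). A same-strand gene, Gm21970, shares 9.46% of the exon length of Ifnar2, so some of its reads could have been counted for either.

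Ifnar1 rose on differentiation in MUNC genomic cells by 0.33 (SE 0.09, adjusted p = 0.00847), and was called neither higher nor lower in MUNC spliced cells (0.13, 95% interval -0.07 to 0.33, adjusted p = 0.315). In control cells the change was 0.32 (SE 0.09). Between lines in GM, Ifnar1 was higher in MUNC spliced than in control cells by 0.41 (SE 0.09, adjusted p = 0.00302). Both chains were also higher in MUNC spliced GM when set against MUNC genomic GM, Ifnar1 by 0.28 (SE 0.09, adjusted p = 0.0293) and Ifnar2 by 0.33 (SE 0.11, adjusted p = 0.0284). These 2 calls were lost when the fit held those groups alone (adjusted p = 0.108 and 0.107). They were also lost without MUNC spliced GM replicate 2 or without MUNC genomic GM replicate 1 or 3 (adjusted p of 0.0502 to 0.147 for Ifnar1 and 0.0869 to 0.112 for Ifnar2).

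The kinases differed from each other in behaviour. Jak1 (ENSMUSG00000028530, chromosome 4, 101151974 to 101265282), which serves many cytokine receptors besides this one, ranged from 231 to 326 FPM over the 18 libraries, a 1.41-fold range. It was at 247.9, 281.7 and 244.7 FPM in control GM, 279.8, 305.7 and 285.4 FPM in MUNC spliced GM and 271.8, 277.3 and 231.5 FPM in MUNC genomic GM. With differentiation its level was 272.1, 266.2 and 260.7 FPM in control, 270.9, 298.7 and 326.2 FPM in MUNC spliced and 280.5, 261.1 and 265.9 FPM in MUNC genomic cells. GM and DM3 overlapped in every line. It was called in none of the 8 tested comparisons, where the absolute log2 change was largest for MUNC spliced against control in GM (0.17, 95% interval -0.03 to 0.37, adjusted p = 0.177). That change passed with equal sums per library (0.28, adjusted p = 0.0336) and with quantile normalization (0.33, adjusted p = 0.0207).

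Tyk2 (ENSMUSG00000032175, chromosome 9, 21104068 to 21131393) was at 23.9, 29.7 and 25.7 FPM in GM and 44.8, 46.8 and 51.8 FPM in DM3 in the control line, with no overlap. In MUNC spliced cells it was at 21.2, 36.0 and 27.7 FPM in GM and 30.9, 37.4 and 36.8 FPM in DM3. In MUNC genomic cells it was at 30.3, 38.02 and 30.8 FPM in GM and 39.6, 42.7 and 44.7 FPM in DM3. The control DM3 libraries were thus the highest group. On differentiation the change was 0.83 (SE 0.16) in control, 0.32 (SE 0.16, adjusted p = 0.114) in MUNC spliced and 0.35 (SE 0.16, adjusted p = 0.0676) in MUNC genomic cells. Neither tested change was called, but both were without replicate 2 of GM in all lines (0.51, adjusted p = 0.00774, and 0.46, adjusted p = 0.0103). Tyk2 was lower in MUNC spliced than in control DM3 by -0.44 (SE 0.16, adjusted p = 0.0309), with all 3 libraries below all 3 of control. That call was lost with equal sums per library (adjusted p = 0.0599), without control DM3 replicate 2 or 3 (0.0633 and 0.106) and without MUNC spliced DM3 replicate 1 (0.115). With the replicate number as a block, Tyk2 was also called higher in MUNC genomic than in control GM (0.31, adjusted p = 0.0417, against 0.159 without the block). An opposite-strand gene, 1700084C06Rik, shares 8.07% of the exon length of Tyk2, and whether counting used strand is not given in the sources used here.

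**Figure D1:**
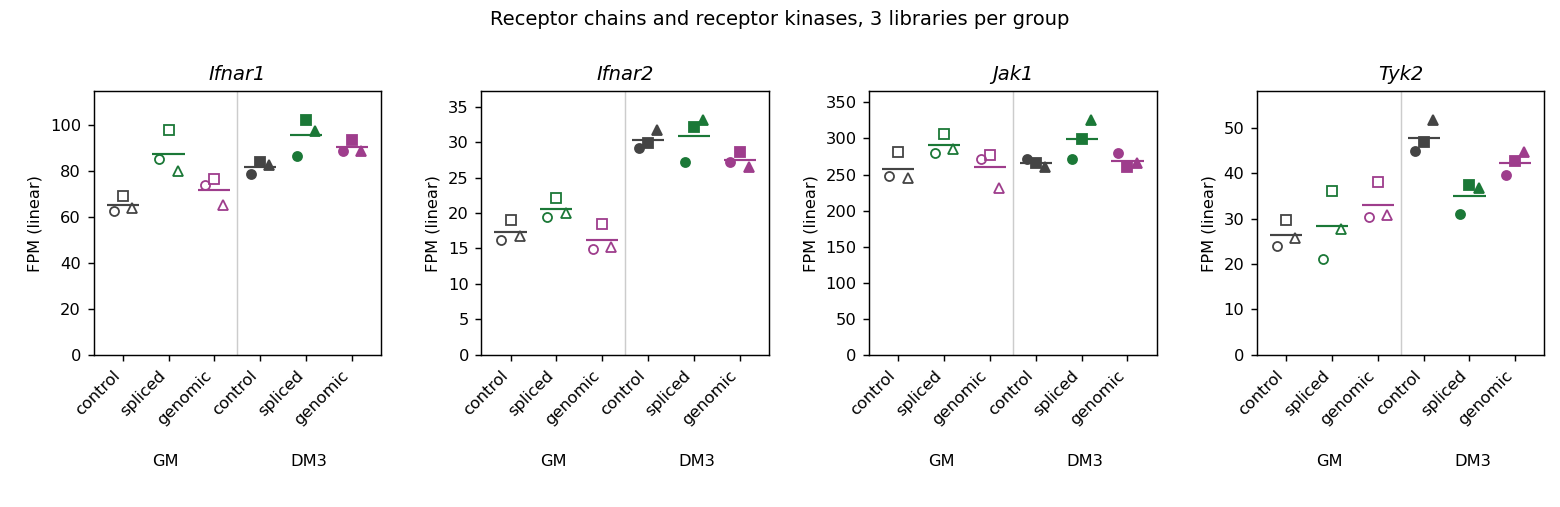
Levels of the receptor chains and kinases in FPM (linear axis from 0) for each library; circles, squares and triangles are replicates 1, 2 and 3, open symbols GM, filled symbols DM3, and lines the group means. Jak1 stays between 231 and 326 FPM, while Ifnar2 shows no overlap between GM and DM3 in any line.

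The other receptor chains and kinases of the JAK-STAT system were read from lists written with earlier results known. Of 7 tested receptor genes from 8 listed, 3 rose in MUNC spliced and 4 in MUNC genomic cells on differentiation, and none fell. Of all genes, 35.6% and 51.4% were called in these comparisons, so both counts are near the background. The median log2 change was 0.54 and 0.57, against -0.01 and 0.02 over all genes. Lifr, the receptor of leukaemia inhibitory factor, was higher in MUNC spliced than in control GM by 2.78 (SE 0.27, adjusted p = 8.85e-07), at 44.98 to 100.3 FPM against 7.99 to 10.4 FPM. Ifngr1, the binding chain for type II interferon, was lower in MUNC spliced DM3, compared with MUNC genomic DM3, by -1.23 (SE 0.15, adjusted p = 4.28e-06), at 56.2 to 64.5 FPM against 134 to 148 FPM. The MUNC genomic DM3 libraries bore on the choice of genes, so this adjusted p gives no independent support.

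The Stat2 and Irf9 transcripts, which encode the subunits particular to ISGF3, separated the groups far more than the receptor did. Stat2 (ENSMUSG00000040033, chromosome 10, 128270498 to 128292853) was at 28.9, 96.3 and 31.1 FPM in control GM, 31.0, 57.0 and 35.2 FPM in MUNC spliced GM and 25.5, 38.5 and 29.4 FPM in MUNC genomic GM. After 3 days of differentiation it was at 516.4, 531.7 and 515.9 FPM in control, 280.8, 401 and 466 FPM in MUNC spliced, but 48.1, 59.2 and 69.0 FPM in MUNC genomic cells. Replicate 2 was the highest GM library in each line, and the MUNC genomic DM3 libraries all lay below the highest control GM library.

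Between GM and DM3 the mean rose 10.01-fold in control cells (log2 change 3.53, SE 0.35), which is given as a description. Without control GM replicate 2 the ratio of means was 17.4. Stat2 rose 9.32-fold in MUNC spliced cells (3.21, SE 0.35, adjusted p = 6.69e-06) and 1.89-fold in MUNC genomic cells (0.90, SE 0.35, adjusted p = 0.0390). The smaller change was not stable: it missed the threshold with edgeR on recovered reads (adjusted p = 0.0516), without a filter on low values (0.0885) and without 1 of 4 libraries, MUNC genomic GM replicate 1 or 3 or DM3 replicate 2 or 3 (0.0845 to 0.124).

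Irf9 (ENSMUSG00000002325, chromosome 14, 55603985 to 55610030), the DNA-binding subunit, had the same order of lines within each medium, control highest and MUNC genomic lowest by mean. It was at 16.4, 39.0 and 19.3 FPM in control GM, 10.4, 17.6 and 11.1 FPM in MUNC spliced GM and 8.79, 10.97 and 8.46 FPM in MUNC genomic GM. With differentiation its level was 143.5, 146 and 137 FPM in control, 83.4, 106.5 and 109.4 FPM in MUNC spliced and 15.3, 19.6 and 21.2 FPM in MUNC genomic cells. The 3 DM3 groups did not overlap with one another.

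Irf9 rose 7.63-fold on differentiation in MUNC spliced cells (log2 change 2.87, SE 0.25, adjusted p = 7.44e-07) and 1.99-fold in MUNC genomic cells (0.92, SE 0.25, adjusted p = 0.00590). In control cells the mean was 5.72-fold higher in DM3 (2.57, SE 0.25). In GM it was lower than in control in both lines, by -0.82 in MUNC spliced (SE 0.25, adjusted p = 0.0181) and by -1.22 in MUNC genomic cells (SE 0.25, adjusted p = 0.00159). The first of these calls was lost without control GM replicate 2, the library with the highest level (-0.45, adjusted p = 0.0919). It was also lost without MUNC spliced GM replicate 1 (0.0737) or 3 (0.0582) and when those groups were fitted alone (0.109). With replicate 2 of GM left out in all lines, Irf9 stayed called. The gene Rnf31 shares 2.28% of the exon length of Irf9 on the same strand.

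Among other IRFs, 6 of 8 listed genes were tested. Irf7, the factor that amplifies interferon production, rose by 5.99 in MUNC spliced cells (SE 0.54, adjusted p = 1.08e-06) and by 1.69 in MUNC genomic cells (SE 0.54, adjusted p = 0.0151). Its DM3 level was 510.3 to 625.9 FPM in control, 115 to 222 FPM in MUNC spliced and 4.55 to 6.79 FPM in MUNC genomic cells. Irf3, which initiates interferon transcription, was higher in MUNC genomic than in control GM by 0.28 (SE 0.09, adjusted p = 0.0234). Of 7 tested JAK and STAT genes from 8 listed, 4 rose in MUNC spliced and 2 in MUNC genomic cells on differentiation, and none fell, beside 35.6% and 51.4% of all genes called. Stat3 rose in MUNC genomic cells by 1.47 (SE 0.16, adjusted p = 3.74e-06) and in MUNC spliced cells by 0.91 (SE 0.16, adjusted p = 0.000547). In control cells the change was 1.78 (SE 0.16).

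The feedback inhibitors behaved unlike each other. Socs1 (ENSMUSG00000038037, chromosome 16, 10783808 to 10785536), which inhibits the kinases, was at 6.01, 4.96 and 7.45 FPM in control GM, 3.13, 3.23 and 4.24 FPM in MUNC spliced GM and 4.04, 3.48 and 6.55 FPM in MUNC genomic GM. In low serum it was at 11.8, 8.15 and 9.76 FPM in control, 6.55, 7.77 and 5.98 FPM in MUNC spliced and 6.01, 4.22 and 3.49 FPM in MUNC genomic cells. MUNC genomic GM and DM3 overlapped, while the media did not overlap in the other lines.

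Socs1 rose on differentiation in MUNC spliced cells by 0.78 (SE 0.21, adjusted p = 0.00977). In MUNC genomic cells the change was -0.02 (95% interval -0.47 to 0.43, adjusted p = 0.961), and in control cells it was 0.61 (SE 0.21). It was lower in MUNC spliced than in control GM by -0.65 (SE 0.21, adjusted p = 0.0261), a call lost without a filter on low values (0.0647) and without control GM replicate 1 or 3 or MUNC spliced GM replicate 1 or 2 (0.0563 to 0.107). Of the 15 tested negative regulators from 16 listed, 1 rose in MUNC spliced and 6 rose in MUNC genomic cells on differentiation, and none fell. Both shares are below the 35.6% and 51.4% of all genes called. Socs2, an inhibitor of growth hormone signalling, rose in MUNC genomic cells by 2.84 (SE 0.32, adjusted p = 3.99e-06), to 41.4 to 58.5 FPM in DM3. Socs3, which restrains the gp130 cytokines, was the 1 that rose in MUNC spliced cells (1.17, SE 0.25, adjusted p = 0.00210). Ptpn2, a phosphatase of JAK kinases, was lower than control in GM in MUNC spliced (-0.67, adjusted p = 0.000539) and MUNC genomic cells (-0.55, adjusted p = 0.00318).

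Usp18 (ENSMUSG00000030107, chromosome 6, 121245906 to 121270917) had the widest range of the 9 genes, 0.0420 to 406 FPM, and the most spread within GM. It was at 5.51, 26.4 and 1.63 FPM in control GM, 0.505, 2.13 and 0.144 FPM in MUNC spliced GM and 0.344, 0.152 and 0.0420 FPM in MUNC genomic GM. The last 3 values rest on 24, 9 and 2 reads. After differentiation it was at 405.7, 240.4 and 187.2 FPM in control, 115.2, 163 and 127 FPM in MUNC spliced and 1.35, 1.43 and 1.68 FPM in MUNC genomic cells. The highest MUNC genomic DM3 library was thus close to the lowest control GM library.

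The mean of Usp18 rose 146-fold on differentiation in MUNC spliced cells (log2 change 6.26, SE 0.57, adjusted p = 1.22e-06). In MUNC genomic cells it was 8.29-fold higher in DM3, with no overlap between 2 to 24 reads in GM and 68 to 95 reads in DM3 per library, but the change missed the threshold (1.08, SE 0.57, adjusted p = 0.127). The added count of 1 FPM compresses values this low. The change was called with a pseudocount of 0.1 FPM (2.65, adjusted p = 0.0106), with edgeR (2.91, adjusted p = 0.0334) and DESeq2 (3.05, adjusted p = 0.00302) on recovered reads, and with those groups alone in the limma fit (adjusted p = 0.000508). In control cells the mean was 24.9-fold higher in DM3 (5.09, SE 0.57). These ratios rest on single GM libraries: without replicate 2 they were 416 in MUNC spliced and 77.8 in control cells, and without replicate 1 the ratio was 15.3 in MUNC genomic cells. The highest GM library of each line was left out, so these ratios are not like for like between lines. The log2 change in control cells was 5.997 without GM replicate 2 and 4.31 without GM replicate 3. In GM, Usp18 was lower than in control by -2.15 in MUNC spliced (SE 0.57, adjusted p = 0.00845) and by -2.73 in MUNC genomic cells (SE 0.57, adjusted p = 0.00204). Without control GM replicate 2 these were -1.24 (adjusted p = 0.0306) and -1.82 (adjusted p = 0.00435), and without control GM replicate 3 they were -2.93 and -3.51. Replicate 2 was kept in the MUNC lines there and was the highest MUNC spliced GM library, so the value of -1.24 is not like for like. With replicate 2 of GM left out in all lines, the MUNC genomic change was -1.81 (adjusted p = 0.00535), and the MUNC spliced change stayed called. The MUNC spliced change in GM was not called when those groups were fitted alone (adjusted p = 0.0804). Gm44148 lies on the opposite strand over 4.44% of the exon length of Usp18.

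Isg15 (ENSMUSG00000035692, chromosome 4, 156199424 to 156200818) was at 19.5, 55.5 and 13.5 FPM in control GM, 2.68, 9.33 and 3.17 FPM in MUNC spliced GM and 1.76, 2.43 and 0.756 FPM in MUNC genomic GM. After differentiation it was at 586.7, 403 and 377 FPM in control, 255, 359 and 286 FPM in MUNC spliced and 7.10, 6.01 and 8.04 FPM in MUNC genomic cells. All MUNC genomic DM3 libraries lay above MUNC genomic GM and below control GM.

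Isg15 rose 59.3-fold in MUNC spliced cells (log2 change 5.78, SE 0.43, adjusted p = 1.42e-07) and 4.28-fold in MUNC genomic cells (1.65, SE 0.43, adjusted p = 0.00427). In control cells the mean was 15.4-fold higher in DM3 (4.13, SE 0.43). Without replicate 2 of GM the ratio of means was 102.6 in MUNC spliced and 27.6 in control cells. It was lower than control in GM by -2.24 in MUNC spliced (SE 0.43, adjusted p = 0.000762) and by -3.33 in MUNC genomic cells (SE 0.43, adjusted p = 2.05e-05), with no overlap in either case. MUNC spliced GM lay above MUNC genomic GM in all libraries (1.08, SE 0.43, adjusted p = 0.0587). That difference was called with the replicate number as a block (adjusted p = 0.0246), with a pseudocount of 0.1 FPM (1.47, adjusted p = 0.0283), and with edgeR (1.57, adjusted p = 0.0325) and DESeq2 (1.58, adjusted p = 0.0226) on recovered reads.

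**Figure D2:**
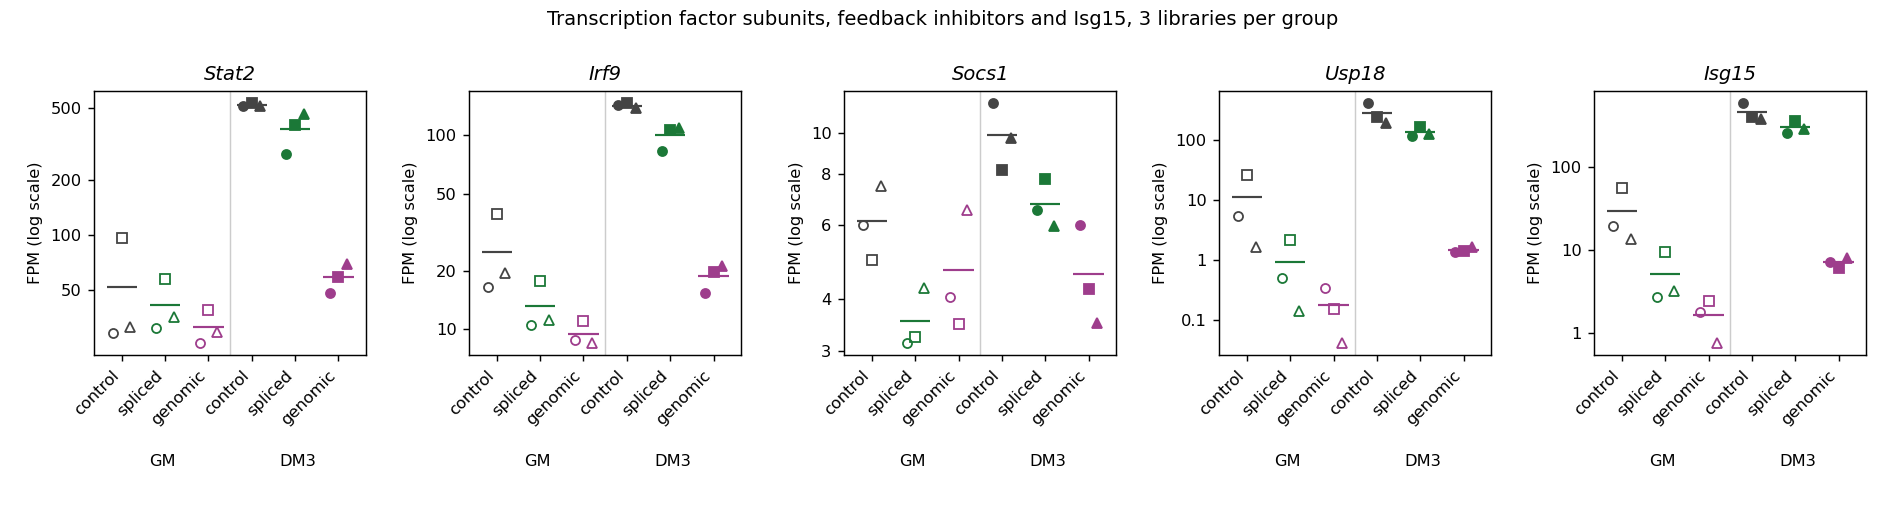
Levels of Stat2, Irf9, Socs1, Usp18 and Isg15 in FPM (log axes) for each library; symbols as for the receptor chains. In DM3 the MUNC genomic libraries lie between 6.01 and 8.04 FPM for Isg15 and between 1.35 and 1.68 FPM for Usp18, below the other lines, and replicate 2 is the highest control GM library for Stat2, Irf9, Usp18 and Isg15.

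The enzymes that attach Isg15 to proteins were read as a further list, of which 5 of 6 genes were tested (Usp41 was not used here). On differentiation 4 of the 5 rose in MUNC spliced cells and 2 in MUNC genomic cells, with median log2 changes of 2.44 and 0.28, beside 35.6% and 51.4% of all genes called. Uba7, the activating enzyme, rose by 3.67 in MUNC spliced (SE 0.50, adjusted p = 6.43e-05) and by 1.98 in MUNC genomic cells (SE 0.50, adjusted p = 0.00362), where it reached 20.8 to 29.0 FPM against 85.4 to 103.6 FPM in control DM3. Ube2l6, the conjugating enzyme, was lower in MUNC genomic than in control GM by -1.70 (SE 0.26, adjusted p = 0.000107), at 4.83 to 7.93 FPM against 15.6 to 32.5 FPM. Herc6, the main ligase in mouse, was higher in MUNC spliced DM3, compared with MUNC genomic DM3, by 2.86 (SE 0.34, adjusted p = 4.11e-06), at 83.1 to 131 FPM against 10.8 to 15.1 FPM. The MUNC genomic DM3 libraries bore on the choice of genes, so the adjusted p of Herc6 gives no independent support. Trim25, which is a ligase for Isg15 and for RIG-I, was lower in MUNC spliced than in control DM3 by -1.04 (SE 0.19, adjusted p = 0.000398).

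The 9 genes were then counted per comparison beside the share of all 13869 genes called. On differentiation 6 of 9 members rose in MUNC spliced cells, where 35.6% of genes were called, and 5 of 9 in MUNC genomic cells, where 51.4% were called. The latter is near the background and is no result about the members as a set. Their median log2 change was 0.78 and 0.73, against -0.01 and 0.02 over all genes. In control cells 8 of 9 were higher in DM3, beside 58.2% of all genes called, from which nothing is read because this contrast bore on the choice.

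The test that compares the responses of the MUNC lines directly called 4 of 9 genes, beside 10.5% of all genes. It uses the MUNC genomic DM3 libraries, which bore on the choice of genes. Nothing is read from the count, and the adjusted p-values give no independent support. The response of MUNC spliced cells exceeded that of MUNC genomic cells for Stat2 by 2.31 (SE 0.49, adjusted p = 0.00656), Irf9 by 1.95 (SE 0.35, adjusted p = 0.00214), Usp18 by 5.18 (SE 0.81, adjusted p = 0.000686) and Isg15 by 4.13 (SE 0.61, adjusted p = 0.000388). Usp18 missed the threshold with edgeR on recovered reads (4.27, adjusted p = 0.111). For Socs1 the difference was 0.80 (95% interval 0.16 to 1.43, adjusted p = 0.105). For Ifnar1, Ifnar2, Jak1 and Tyk2 it lay between -0.20 and -0.02, with adjusted p of 0.373 or more.

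**Figure D3:**
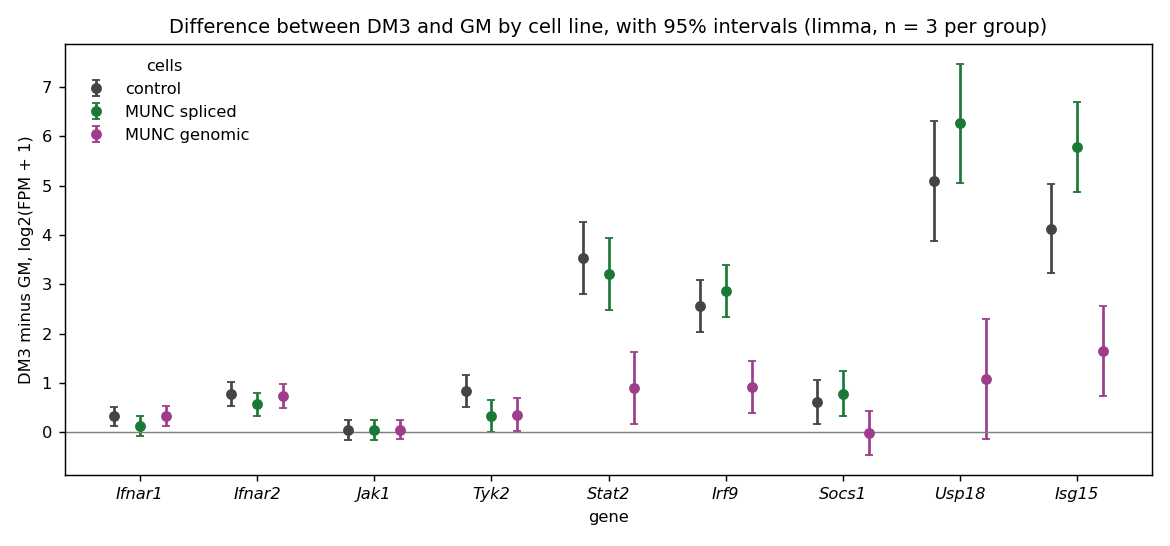
Difference between DM3 and GM on the log2(FPM + 1) scale for each gene and line, with 95% intervals from limma (n = 3 per group). The receptor chains and kinases lie between 0.04 and 0.83 in all lines, whereas Stat2, Irf9, Usp18 and Isg15 lie between 2.57 and 6.26 in control and MUNC spliced cells and between 0.90 and 1.65 in MUNC genomic cells.

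Against control the interaction is a description. The MUNC genomic response was smaller than that of control for Stat2 by -2.63 (SE 0.49), Irf9 by -1.65 (SE 0.35), Usp18 by -4.01 (SE 0.81) and Isg15 by -2.48 (SE 0.61), 4 members beside 8.81% of all genes called. For Usp18 and Isg15 this depended on the scale, because the MUNC genomic GM level is so low that the DM3 to GM ratio of means was still 8.29 and 4.28, beside 24.9 and 15.4 in control. The control ratios were 77.8 and 27.6 without control GM replicate 2, and the Usp18 ratio in MUNC genomic cells was 15.3 without GM replicate 1. A different replicate, the highest GM library of its line, was left out in each line. These ratios are thus not like for like, and no narrowing of the gap is read from them. With a pseudocount of 0.1 FPM the values were -2.72 and -2.03, and only Stat2 and Irf9 stayed called, as with edgeR and DESeq2. Without control GM replicate 2 or 3 the Usp18 value was -4.92 or -3.23, and without GM replicate 2 of all lines it was -4.93. For MUNC spliced cells, also a description, 0 of 9 members were called by limma, edgeR or DESeq2, with 2 at an unadjusted limma p under 0.05, beside 14.4% of all genes. Those fits held no replicate block. With the block Tyk2 and Isg15 were called, and with GM replicate 2 left out in all lines Isg15 was called. Nothing is read from these counts and calls. The largest values were 1.66 (SE 0.61) for Isg15 and 1.17 (SE 0.81) for Usp18.

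Between lines within a medium, MUNC spliced GM differed from control GM in 5 members, Ifnar1 higher and Irf9, Socs1, Usp18 and Isg15 lower, beside 35.5% of all genes. With the replicate block Ifnar2 joined them (0.24, adjusted p = 0.0326). In MUNC genomic GM 3 members were lower than control, Irf9, Usp18 and Isg15, beside 26.8%. For Stat2 the differences from control GM were -0.16 (95% interval -0.89 to 0.57) in MUNC spliced and -0.52 (-1.25 to 0.22) in MUNC genomic cells, and neither was called. Without control GM replicate 2 alone, the ratio of means to control went from 0.788 to 1.37 in MUNC spliced and from 0.598 to 1.04 in MUNC genomic cells. Replicate 2 was kept in the MUNC lines, where it was also the highest (57.0 and 38.5 FPM). These ratios are thus not like for like, and no direction is read from them. In MUNC spliced against MUNC genomic GM 2 members were called, both receptor chains, beside 35.8%.

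In DM3 only Tyk2 of the 9 was called between MUNC spliced and control cells, beside 43.3% of all genes. All 3 MUNC spliced libraries nonetheless lay below all control libraries for 6 genes, Tyk2, Stat2, Irf9, Socs1, Usp18 and Isg15. The differences were -0.48 for Stat2 (95% interval -1.21 to 0.26), -0.52 for Irf9 (-1.05 to 0.01), -0.48 for Socs1 (-0.93 to -0.03), -0.97 for Usp18 (-2.19 to 0.24) and -0.59 for Isg15 (-1.49 to 0.32). With the replicate block 3 members were called, Irf9 (adjusted p = 0.0301) and Ifnar1 (0.22, adjusted p = 0.0153) joining Tyk2, and in a fit of these groups alone 4, Irf9 (0.0123), Usp18 (0.0265) and Isg15 (0.04997) joining it. The authors' deposited table lists adjusted p-values of 0.0136 for Tyk2, 0.00523 for Irf9, 0.0333 for Socs1, 0.00100 for Usp18 and 0.0211 for Isg15 in this comparison.

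MUNC spliced DM3 was higher than MUNC genomic DM3 in 4 members, beside 44.2% of all genes, a count near the background and no result about the members as a set. The differences were 2.67 for Stat2 (SE 0.35, adjusted p = 1.03e-05), 2.36 for Irf9 (SE 0.25, adjusted p = 1.06e-06), 5.76 for Usp18 (SE 0.57, adjusted p = 5.04e-07) and 5.22 for Isg15 (SE 0.43, adjusted p = 4.97e-08). As ratios of means these were 6.51, 5.34, 91.0 and 42.6. The MUNC genomic DM3 libraries bore on the choice of genes, so these adjusted p-values give no independent support. MUNC genomic DM3 was lower than control DM3 in 5 members, Socs1 included, beside 40.3% of all genes, and nothing is read from that count. The means were 8.87-fold higher in control for Stat2, 7.62-fold for Irf9, 2.17-fold for Socs1, 187-fold for Usp18 and 64.6-fold for Isg15. Whether fewer cells carried these transcripts or each cell carried less cannot be told apart in bulk RNA.

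MUNC genomic cells also stood apart in other markers. Of 3 endothelial markers, Cdh5 alone passed the filter. The 3 summed to 7.10 to 7.36 FPM in MUNC genomic GM and 3.89 to 4.99 FPM in MUNC genomic DM3, against at most 0.602 FPM elsewhere, with at most 1 read of Kdr per library. The 3 fibroblast markers summed to 19.0 to 27.5 FPM in MUNC genomic cells over both media and to 6.28 to 16.1 FPM in the other lines, nearly all from Pdgfra. Against control, Pdgfra was higher in MUNC genomic cells by 1.61 in GM and 1.27 in DM3. Dpt went the other way, by -0.57 in GM (not called) and -0.75 in DM3 (called). Des, a muscle intermediate filament gene, was at 332 to 1010 FPM in MUNC genomic libraries and 16.0 to 94.4 FPM in the rest. Their part in the interferon result was not tested.

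The ligands were near the limit of detection. None of 21 interferon genes passed the filter, and 10 had no read in any library. Ifnb1, the first interferon made by most cells, had 9, 5 and 10 reads in control DM3, 7, 9 and 10 in MUNC spliced DM3 and 0 in each MUNC genomic DM3 library, where up to 0.0594 FPM is allowed by a count of 0. Ifng had 34, 22 and 10 reads in MUNC spliced DM3 and none in control DM3. The ligands summed to 0.138 to 0.368 FPM in control DM3, 0.560 to 0.911 FPM in MUNC spliced DM3 and 0 to 0.0390 FPM in MUNC genomic DM3. In control GM the sums were 0.137, 0.177 and 0.476 FPM, from 8 to 31 reads per library.

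Effector genes downstream were counted from a list of 20, of which 19 were tested. All 19 rose on differentiation in MUNC spliced cells, with a median log2 change of 5.21, and 6 rose in MUNC genomic cells, with a median of 0.53. The shares of all genes called were 35.6% and 51.4%, so the second count is below the background. Oas2, which makes the activator of RNase L, rose by 7.62 in MUNC spliced cells (SE 0.51, adjusted p = 5.29e-08), and Xaf1, a proapoptotic factor, by 2.26 in MUNC genomic cells (SE 0.37, adjusted p = 0.000119). In GM 14 were lower than control in MUNC spliced and 16 in MUNC genomic cells, beside 35.5% and 26.8% of all genes called. Bst2, the virion tether, was lower in MUNC spliced GM by -2.45 (SE 0.27, adjusted p = 4.61e-06), and Ifit1, which binds viral RNA, in MUNC genomic GM by -5.43 (SE 0.60, adjusted p = 3.99e-06). The 20 genes summed to 356, 1057 and 241 FPM in control GM, so replicate 2 was high for them as it was for Isg15. Leaving out replicate 2 of GM in all lines, a choice made after seeing the data, left 7, 7 and 7 members called higher in DM3 in control, MUNC spliced and MUNC genomic cells, 4 and 3 called against control in GM, and 4 for the difference between the MUNC responses.

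Levels of different genes were compared per kilobase of exon. In control GM Isg15 and Jak1 headed the order with overlapping libraries, at 39.0 ± 30.1 and 35.7 ± 2.84 FPM per kb (SD, n = 3). In MUNC spliced and MUNC genomic GM Jak1 led alone, at 40.2 ± 1.89 and 36.0 ± 3.46 FPM per kb, and Usp18 was last, at 0.332 ± 0.378 and 0.0642 ± 0.0547 FPM per kb. In control DM3 Isg15 led at 603 ± 151 FPM per kb, followed by Usp18 and Stat2, which overlapped, at 99.6 ± 40.8 and 88.0 ± 1.52 FPM per kb. Jak1 came next, at 36.9 ± 0.789 FPM per kb. In MUNC genomic DM3 Jak1 led again at 37.2 ± 1.40 FPM per kb, before Ifnar1 at 15.2 ± 0.485, while Stat2, Isg15 and Ifnar2 overlapped in turn at 9.92, 9.33 and 8.24 FPM per kb. Usp18 was again last, at 0.532 ± 0.0619 FPM per kb.

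**Figure D4:**
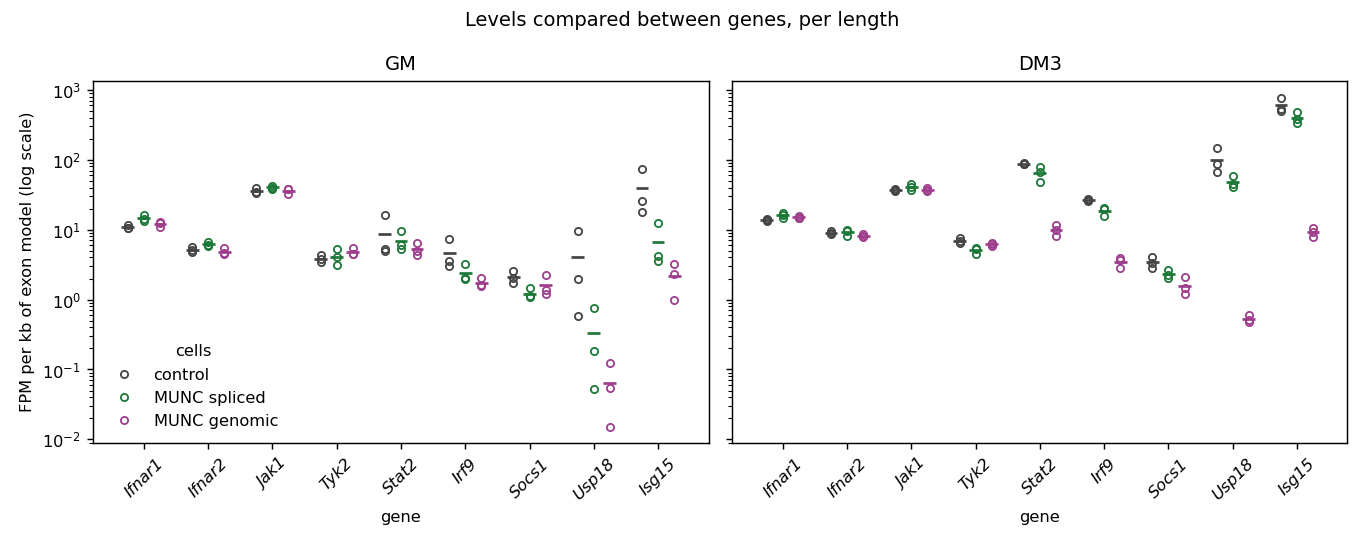
Levels per kilobase of exon model (FPM per kb, log axis) for the 9 genes in GM and DM3; points are libraries and bars are means of 3. The group means of Jak1 lie between 35.7 and 41.3 FPM per kb, while those of Usp18 run from 0.0642 in MUNC genomic GM to 99.6 in control DM3.

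The genes most alike to each member in profile were taken as those with the highest Pearson r of log2(FPM + 1) over the 18 libraries, among 10369 genes with a mean of at least 5 FPM. The libraries share the 6 groups, so r is a description. Isg15 was nearest to Sp100, Oasl2 and Xaf1 (r = 0.992 each), Usp18 to Ifi44 (0.996), Iigp1 and Sp100, and Irf9 to Irf7 (0.995), Xaf1 and Oasl2, all of them interferon-stimulated genes. Stat2 was nearest to Phf11d (0.989), Tgtp2 and Dtx3l. Socs1 was nearest to Myd88 (0.852), Chmp4b and Isg20. The receptor and kinase genes had other neighbours: Kat6b (0.963) for Ifnar1, Sox4 (0.987) for Ifnar2, Col16a1 (0.872) for Jak1 and Insr (0.950) for Tyk2.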

How the data were processed

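RNA-seq of polyadenylated RNA covered 18 libraries in 6 groups, taken from the sample titles. In 9 samples the source name, which gives myoblasts or myotubes, disagreed with the title. The titles were used, so the medium assigned to those samples rests on them. The members and gene lists were chosen with earlier results of these data known. The authors deposited a table of signal (FPM) for 35275 genes; each library's values are whole multiples of 1 step, and dividing by it gave whole reads for 100% of values to within 0.05 of a read (largest distance 0.0354). Per the file headers, further deposited tables give the authors' comparisons as log2 fold changes, p-values and scores, the last not used. STAR, HTSeq, DESeq2 and mm10 are named without roles in the submitters' processing notes, and the annotation and strandedness are not given in the sources used here.

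Differences were tested with limma 3.58.1 (R 4.3.3; lmFit, contrasts.fit, eBayes with trend) on log2(FPM + 1) over the 13869 genes that reached 0.5 FPM in 3 or more libraries. A single fit held 6 group means for the 18 libraries (12 residual degrees of freedom), and a gene was called where its p, adjusted by Benjamini-Hochberg, was under 0.05. On simulated data the fits were checked before use. Alternatives were a pseudocount of 0.1, no filter, 2 scalings, edgeR 4.0.16 and DESeq2 1.42.0 on recovered reads, only the compared groups, the replicate block, each replicate left out, and GM replicate 2 left out in all lines, added after seeing the data. All 9 genes are named in every comparison; from each other list, the called gene with the largest change in each direction among those without overlap between groups could be named. The values of 1 listed gene are not reported here. Depth was 38416702 to 68788327 reads, and limits from read counts cover counting error only. Exon lengths and gene positions are from GENCODE M21 on GRCm38.

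The labels give each group replicates 1 to 3 without saying what a number shares. Deviations of same-numbered libraries from their group means correlated over 0.1 in every pair for 6 of the 9 direct comparisons (0.171 to 0.727), those against or within control and the comparison of the MUNC lines in GM, but not for the other 3 (0.0163 to 0.434). All counts and changes come from the fit without a block; for those 6 comparisons the value with the block stands beside a result where it changes the call.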

Additional observations from a re-analysis of the deposited data

Results flagged for a closer look

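The differentiation response of 4 genes differed between lines by an interaction term in limma on log2(FPM + 1). Between the MUNC lines, the log2 change from GM to DM3 was larger in MUNC spliced than in MUNC genomic cells by 2.31 for Stat2, 1.95 for Irf9, 5.18 for Usp18 and 4.13 for Isg15. For Usp18 this was not called with edgeR on recovered reads (adjusted p = 0.111). Against control, the MUNC genomic response was smaller by -2.63 for Stat2, -1.65 for Irf9, -4.01 for Usp18 and -2.48 for Isg15, a contrast that bore on the choice of genes and is given as a description. Usp18 and Isg15 were not called there with a pseudocount of 0.1 (-2.72 and -2.03), with edgeR (-1.70 and -1.85) or with DESeq2 (-1.62 and -1.86). The MUNC genomic response was compared in both, so they share libraries, and its DM3 libraries bore on the choice of genes.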

How the results depend on the processing

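Of 864 values with all replicates kept, 817 stayed on the same side of the threshold, 19 lost and 28 gained a call, and 0 called values turned; values uncalled in both fits count as staying. With 1 replicate left out these numbers were 778, 22, 10 and 0 of 810. Neither scaling moved the median of all genes by 0.1 or more.

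Counts that moved by over 1.5 times were these. For MUNC spliced against control, the count of 5 in GM became 3 with only the compared groups, and the count of 1 in DM3 became 2 with quantile normalization, 2 with DESeq2, 4 with only the compared groups and 3 with the replicate block. MUNC spliced against MUNC genomic GM went from 2 to 1 with quantile normalization, 4 with DESeq2 and 0 with only the compared groups. The MUNC spliced interaction went from 0 to 2 with the replicate block and to 1 with GM replicate 2 left out in all lines. The MUNC genomic interaction went from 4 to 2 with a pseudocount of 0.1, edgeR or DESeq2. Leaving out 1 replicate gave 3 to 4 members in MUNC spliced against control GM (3 without MUNC spliced GM replicate 1) and 0 to 1 in DM3 (0 without control DM3 replicate 2 or 3). It gave 0 to 3 for MUNC spliced against MUNC genomic GM (1 without MUNC spliced GM replicate 2, 0 without MUNC genomic GM replicate 1 or 3). The MUNC spliced interaction gave 0 to 1 (1 without control GM replicate 3 or MUNC spliced GM replicate 1 or 2). The other counts stayed within 1.5 times. The cause was not tested.

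In comparisons whose same-numbered libraries did not all correlate over 0.1, the replicate block also called Tyk2 higher in DM3 in MUNC spliced (adjusted p = 0.0271) and MUNC genomic cells (0.0133), and Tyk2 and Isg15 in the MUNC spliced interaction; besides these and the calls named above it changed none. A library correlated best with its own number in 77 of 90 checks. Genes near 1 FPM, such as Usp18 in MUNC genomic cells, are limited by depth.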
